A study of Mus musculus with 8 samples.

Results

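The growth hormone (GH) and insulin-like growth factor (IGF) axis genes of the liver were taken here as a list of 10 genes: Ghr and Prlr, which encode the GH and prolactin receptors, Igf1, the receptor gene Igf2r, the carrier genes Igfals, Igfbp1, Igfbp2, Igfbp3 and Igfbp4, and Bcl6, which encodes a transcriptional repressor. They were chosen by name, with earlier results of these data known. Of the 10, 9 were found among the 22180 genes measured, each through a single array feature. Prlr was not matched to a feature and was not analysed here.

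GH from the pituitary binds its receptor on hepatocytes and signals through the kinase JAK2 to the transcription factor STAT5B, which switches on Igf1, Igfals and the feedback inhibitors Socs2 and Cish. Liver-made IGF1 circulates in a ternary complex with IGFBP3 and the acid-labile subunit encoded by Igfals, while the smaller binding proteins carry the remainder. GH is released in pulses in male mice and more evenly in females, and this difference sets the sex-biased gene programme of the liver.

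The arrays were hybridized with total RNA from the livers of 8 adult male wild-type mice, bought at 7 weeks of age, acclimated for 2 weeks and kept on standard chow, 4 of which received PBS and 4 recombinant mouse IL1B (interleukin 1 beta) at 0.5 µg per mouse, given intraperitoneally 3 h before collection. The comparison asks which transcripts differ 3 h into this acute inflammatory stimulus. The strain label reads C57BL/6J for PBS and C57BL/6 x CBA for IL1B, whereas C57BL/6J is given for every mouse in the series description. As labelled, strain and treatment cannot be told apart. H2-Ea, a class II antigen gene that C57BL/6 mice lack in active form, was at background on all 8 arrays (3.64 to 4.10), and Nnt, which carries a deletion in C57BL/6J, was 9.23 to 10.04 in PBS and 8.57 to 9.73 in IL1B (difference -0.32 log2, SE 0.28, adjusted p = 0.506).

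Values are log2 signals, and a difference is the IL1B mean minus the PBS mean. A gene was called higher or lower at a limma p adjusted over all 22180 genes of 0.05 or less, and a gene was at background in a group when, on each of its 4 arrays, it did not exceed the highest of the antigenomic probe sets that measure background (6.65 to 7.08). Of the 12 hepatocyte markers, 8 were near the ceiling of the scale (19.93) in both groups, where a change may be hidden (list mean 17.78 to 17.88 in PBS and 17.80 to 17.89 in IL1B). Among these 8, Tat was 19.24 to 19.74 in PBS and 19.84 to 19.93 in IL1B. The groups did not overlap, but Tat did not pass the test (0.40, SE 0.15, limma adjusted p = 0.123). Of the other 4, Serpina1a was lower (-0.48, SE 0.12, adjusted p = 0.0325), while Cyp3a11 (-0.50), Asgr1 (-0.22) and Ass1 (1.11) did not pass the test. Ass1 was above background on only 1 of 4 PBS arrays. Neutrophil markers were higher in IL1B for 8 of 12 genes (66.7% called, against 12.5% of all genes). Their list means were 4.55 to 5.08 in PBS, 10.01 and 10.76 in IL1B 1 and IL1B 2, and 6.60 and 6.63 in IL1B 3 and IL1B 4. Kupffer cell markers passed the test for 0 of 10 genes (1 at an unadjusted p under 0.05), although IL1B 1 (13.32) and IL1B 2 (12.69) stood above the PBS range of 9.96 to 11.21. Among the PBS arrays, PBS 2 had the highest Saa2, a serum amyloid gene, at 13.64 against 9.48 to 9.97 in the other 3.

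Of the 9 genes, 3 were lower after IL1B (33.3%, against 5.32% of all genes tested) and 0 were higher (7.19% of all genes), also at an unadjusted p under 0.05. The median difference was -0.27, against -0.06 over all genes. The shares of all genes, here and for the lists, include many dim genes. In a fit of the 8880 genes above background on at least 4 of the 8 arrays, 1147 were called lower and 1783 higher. In that fit, 3 of the 9 were again lower and 0 higher. As the 9 were chosen with earlier results of these data known, these counts are a description. The 3 lower genes of the 9 were Igfbp2, Igfals and Ghr. The groups did not overlap for these genes and for Igfbp4, all 4 lying below PBS, as 9.14% of all genes did, and none lay wholly above PBS (9.81% of all genes). Each of the 9 was above background and below the ceiling on all 8 arrays. In bulk liver RNA, fewer cells of a type and less RNA per cell cannot be told apart.

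**Figure D1:**
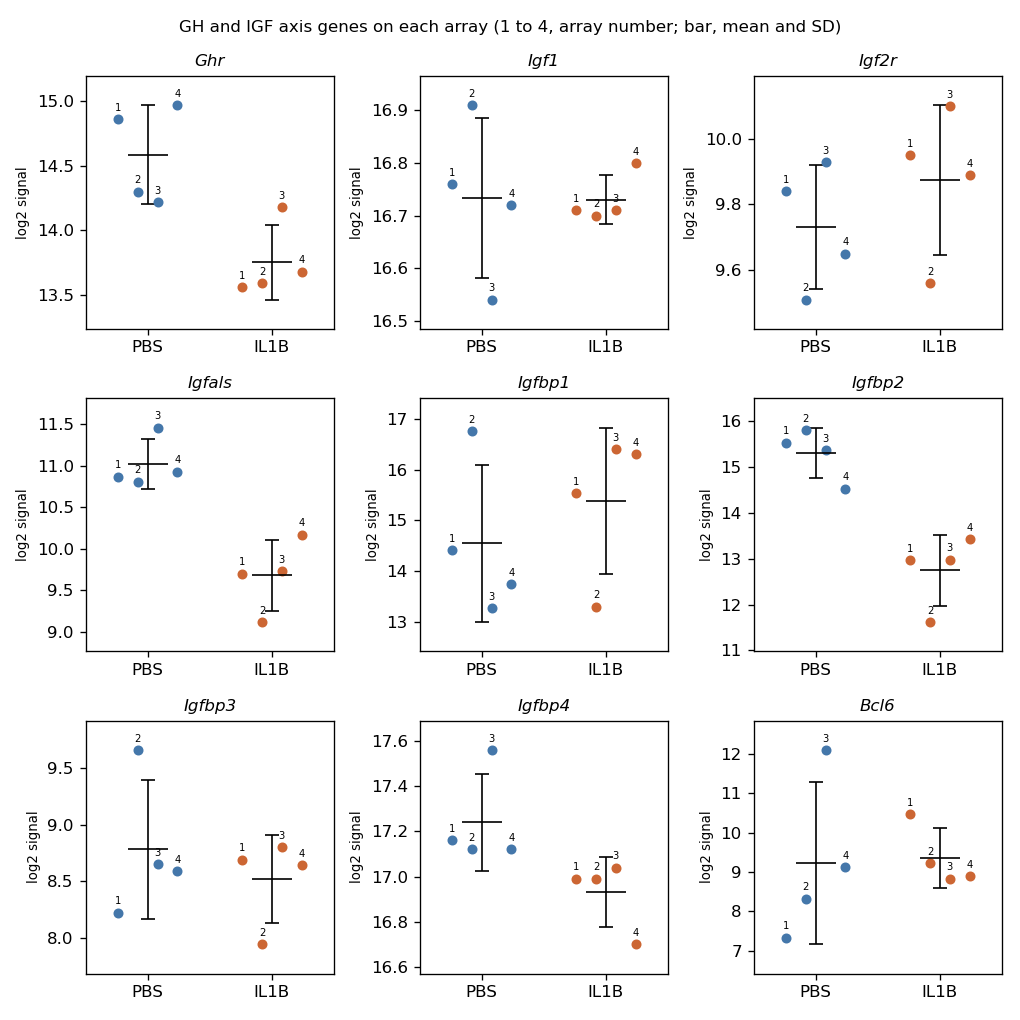
Log2 signal (y axis, scaled for each gene) of the 9 measured genes in the 4 PBS and 4 IL1B arrays; points carry the array number, and the bars give the mean and SD. Ghr, Igfals, Igfbp2 and Igfbp4 have no overlap between groups, while Igfbp1 spans 13.27 to 16.76 in PBS and 13.30 to 16.40 in IL1B.

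Ghr, the gene of the GH receptor and of the circulating GH-binding protein made from it, was 14.86, 14.30, 14.22 and 14.97 in PBS 1 to 4. It was 13.56, 13.59, 14.18 and 13.68 in IL1B 1 to 4. Every IL1B array lay below every PBS array, with IL1B 3 just under PBS 3. The mean fell from 14.59 ± 0.38 to 13.75 ± 0.29 (SD, n = 4), a difference of -0.84 log2 (SE 0.22, 95% confidence interval -1.33 to -0.35, limma adjusted p = 0.0357). The call was lost when PBS 1 (-0.75), PBS 4 (-0.71), IL1B 1 (-0.78), IL1B 2 (-0.78) or IL1B 4 (-0.82) was left out.

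Igf2r encodes the mannose 6-phosphate receptor, which takes up IGF2 for breakdown and passes on no GH signal. It was 9.84, 9.51, 9.93 and 9.65 in PBS and 9.95, 9.56, 10.10 and 9.89 in IL1B. The groups overlapped over most of their range, and the difference was 0.14 (SE 0.16, interval -0.21 to 0.50, adjusted p = 0.624).

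Igf1, the main hormone product of GH action on the liver, was 16.76, 16.91, 16.54 and 16.72 in PBS and 16.71, 16.70, 16.71 and 16.80 in IL1B. All IL1B values lay inside the PBS range. The means were 16.73 ± 0.15 and 16.73 ± 0.05 (SD, n = 4). The 95% confidence interval of the difference ran from -0.28 to 0.28 log2 (limma adjusted p = 0.995).

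Igfals, whose product stabilizes the complex of IGF1 and IGFBP3 in blood, was 10.87, 10.81, 11.46 and 10.93 in PBS. It was 9.70, 9.12, 9.73 and 10.17 in IL1B. All IL1B arrays were lower than all PBS arrays, IL1B 2 being the lowest. The mean fell from 11.02 ± 0.30 to 9.68 ± 0.43, a 2.53-fold drop (log2 difference -1.34, SE 0.23, interval -1.86 to -0.81, limma adjusted p = 0.00614), and the call was kept in all 8 fits with 1 array left out (-1.50 to -1.15).

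The window before a RefSeq start of Igfals is shown because the gene fell and because GH is known to act on it through STAT5 sites. The STAT motif TTCNNNGAA, which reads alike on both strands, is in capitals in these 250 bases before the start (GRCm38.p6, chr17:24877594-24877843, plus strand).
Igfals: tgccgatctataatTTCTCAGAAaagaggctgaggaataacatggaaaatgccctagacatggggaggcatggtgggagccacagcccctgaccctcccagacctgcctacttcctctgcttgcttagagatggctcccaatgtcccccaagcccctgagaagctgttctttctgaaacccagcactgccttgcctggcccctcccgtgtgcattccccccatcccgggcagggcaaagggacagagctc
The match lies 236 to 228 bases before the start. RefSeq lists 3 starts for Igfals, 2 of which have the motif within 250 bases, as do 7.02% of all 32851 mouse promoter windows. A match of letters is a description and was not tested as a binding site.

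Igfbp3, the binding protein of the same complex, is made in the liver mainly by non-parenchymal cells. It was 8.22, 9.66, 8.65 and 8.59 in PBS and 8.69, 7.94, 8.80 and 8.64 in IL1B. PBS 2 was the highest and IL1B 2 the lowest of the 8, with the other 6 between them. The difference was -0.27 (SE 0.31, interval -0.96 to 0.43, adjusted p = 0.639) and turned to 0.03 without PBS 2. Beside this, 5 of 10 sinusoidal endothelial markers were lower and 1 was higher (60% called, against 12.5% of all genes). Their list means were 11.20 to 11.53 in PBS and 10.90 to 11.17 in IL1B. The part of these cells in the Igfbp3 values was not tested.

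Within the ternary complex, the 3 genes were compared as differences on each array, by two-sided exact permutation tests over 70 assignments (smallest p 0.0286), adjusted over the 3 pairs computed. Igfals minus Igf1 was -6.09 to -5.08 on the PBS arrays and -7.58 to -6.63 on the IL1B arrays. The groups did not overlap, and Igfals had shifted by -1.33 log2 relative to Igf1 (exact p = 0.0286, adjusted p = 0.0429). Igfals minus Igfbp3 was 1.15 to 2.81 with PBS and 0.93 to 1.53 with IL1B, a shift of -1.07 that missed the threshold (exact p = 0.0857, adjusted p = 0.0857).

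**Figure D2:**
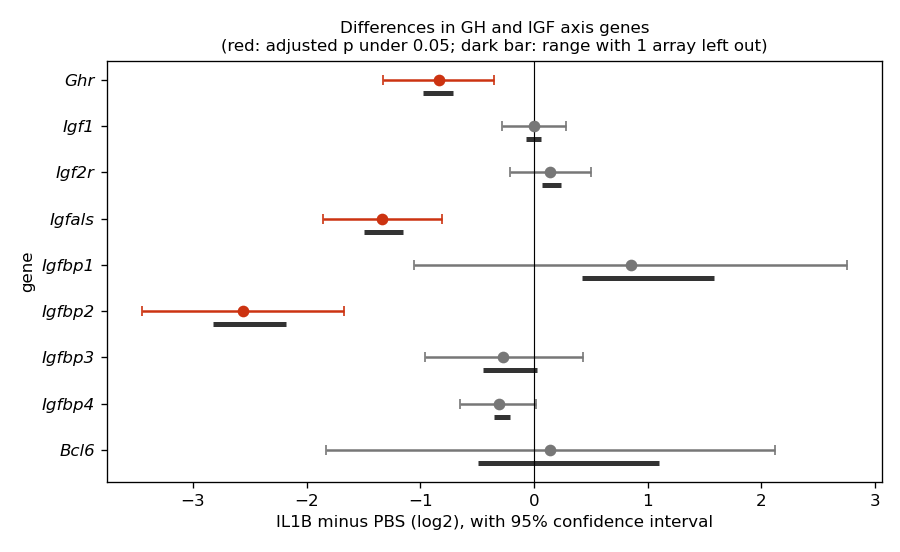
IL1B minus PBS in log2 units (x axis) for the 9 genes, with 95% confidence intervals, and below each the range of the difference over the 8 fits that left out 1 array. The intervals of Ghr, Igfals and Igfbp2 lie wholly below 0, and that of Igfbp1 runs from -1.06 to 2.75.

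Igfbp2, a small binding protein gene active in hepatocytes, showed the largest difference of the 9. It was 15.53, 15.81, 15.37 and 14.53 in PBS 1 to 4. It was 12.97, 11.62, 12.98 and 13.42 in IL1B 1 to 4. The highest IL1B array lay more than 1 log2 unit below the lowest PBS array. The mean fell from 15.31 ± 0.55 to 12.75 ± 0.78, a 5.90-fold drop (log2 difference -2.56, SE 0.40, interval -3.45 to -1.67, limma adjusted p = 0.00326). The call was kept in all 8 fits with 1 array left out (-2.82 to -2.18), and the size of the difference exceeded that of 99.3% of all genes.

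Igfbp1, a binding protein gene that rises in fasting and is held down by insulin, varied more than any of the carriers. It was 14.41, 16.76, 13.27 and 13.74 in PBS. It was 15.54, 13.30, 16.40 and 16.31 in IL1B. In PBS, PBS 2 stood above the other 3 by over 2 log2 units, and in IL1B, IL1B 2 stood below the other 3 by a similar distance. The difference of 0.85 was as large as its error (SE 0.85, interval -1.06 to 2.75, limma adjusted p = 0.581), and it lay between 0.42 and 1.58 with 1 array left out, never past the threshold.

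The Igfbp1 window is shown for its insulin response element. The core searched for, CAAAACA on either strand, is in capitals in the 250 bases before the RefSeq start (GRCm38.p6, chr11:7197537-7197786, plus strand).
Igfbp1: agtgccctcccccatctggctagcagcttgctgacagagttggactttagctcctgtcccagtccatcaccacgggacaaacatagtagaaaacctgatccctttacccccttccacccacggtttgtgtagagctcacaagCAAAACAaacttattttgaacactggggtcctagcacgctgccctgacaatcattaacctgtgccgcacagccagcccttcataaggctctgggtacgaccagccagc
It lies 108 to 102 bases before the start and was found in 1 of the 17 promoter windows of the 10 genes, against 5.56% of all windows. Neither motif was found before the starts of Ghr, Igf1, Igf2r, Igfbp2, Igfbp3 or Igfbp4, which says only that these letters are not in those windows.

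Igfbp1 and Igfbp2 are related carriers that both rise when GH or food is lacking. Of the 2, only Igfbp2 was called (-2.56, limma adjusted p = 0.00326), while Igfbp1 was not (0.85, limma adjusted p = 0.581). Igfbp1 minus Igfbp2 was -2.10 to 0.95 on the PBS arrays and 1.69 to 3.42 on the IL1B arrays. The groups did not overlap, and the shift was 3.41 log2 (two-sided exact permutation p = 0.0286, adjusted p = 0.0429, n = 4 per group).

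Igfbp4, whose product restrains IGF action until it is cleaved by pregnancy-associated plasma protein A, was 17.16, 17.12, 17.56 and 17.12 in PBS and 16.99, 16.99, 17.04 and 16.70 in IL1B. All IL1B values were below all PBS values by a small margin. The difference was -0.31 (SE 0.15, interval -0.65 to 0.02, limma adjusted p = 0.221) and did not pass the test.

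Bcl6, whose product competes with STAT5 at shared sites in mouse liver, was 7.33, 8.32, 12.10 and 9.12 in PBS and 10.47, 9.23, 8.83 and 8.90 in IL1B. PBS 3 was the highest of the 8 and PBS 1 the lowest, so the PBS range enclosed the IL1B values. The difference was 0.14 (SE 0.88, interval -1.83 to 2.12, limma adjusted p = 0.942) and lay between -0.49 and 1.10 with 1 array left out. On the same PBS 3 array, Onecut1, a GH-responsive factor gene of hepatocytes, was 9.43, against 13.15 to 13.62 in the other PBS arrays.

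The Bcl6 window is shown because it holds the STAT motif more than once. These are the 250 bases before a RefSeq start inside the gene (GRCm38.p6, chr16:23981284-23981533, minus strand), with TTCNNNGAA in capitals.
Bcl6: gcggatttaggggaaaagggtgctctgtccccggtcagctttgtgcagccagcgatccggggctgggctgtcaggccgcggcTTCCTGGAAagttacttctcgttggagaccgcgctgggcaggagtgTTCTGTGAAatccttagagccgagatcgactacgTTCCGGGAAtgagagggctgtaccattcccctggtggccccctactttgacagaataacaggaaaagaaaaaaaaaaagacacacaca
The 3 matches begin 168, 122 and 88 bases before this start. The other Bcl6 start has 1 match, and 5 of the 17 windows of the 10 genes held at least 1, Prlr included.

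The genes that carry the GH and prolactin signal were read as a list of 10, of which 3 were higher and 1 was lower. This was 40% called, against 12.5% of all genes, with a median of 0.16. Jak2, the kinase bound to the GH receptor, was 10.17, 10.32, 9.78 and 10.30 in PBS and 11.93, 11.29, 11.93 and 11.64 in IL1B. All IL1B arrays were above all PBS arrays, and the rise was 1.55 ± 0.19 (SE, limma adjusted p = 0.000983). Stat3, which serves the IL6 family as well, rose by 2.21 (SE 0.22, adjusted p = 0.000289), and the adaptor gene Grb2 by 0.91 (SE 0.19, adjusted p = 0.0150). Stat5b, the main GH-activated factor of the liver, was 10.74, 10.59, 10.37 and 9.97 in PBS and 9.60, 9.14, 9.99 and 10.07 in IL1B. Its groups overlapped through PBS 4, and the difference of -0.72 (SE 0.24, adjusted p = 0.0885) missed the threshold, but passed it after quantile normalization (-0.87, adjusted p = 0.0396). That of Stat5a missed it as well (0.36, SE 0.31, adjusted p = 0.517). Of the insulin receptor substrate genes, Irs1 fell to background in IL1B, by at least 0.20 log2 when the IL1B values are raised to the background level (adjusted p = 0.00150; above background on 2 of 4 PBS arrays), and Irs2 differed by -0.66 (SE 0.31, adjusted p = 0.213).

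**Figure D3:**
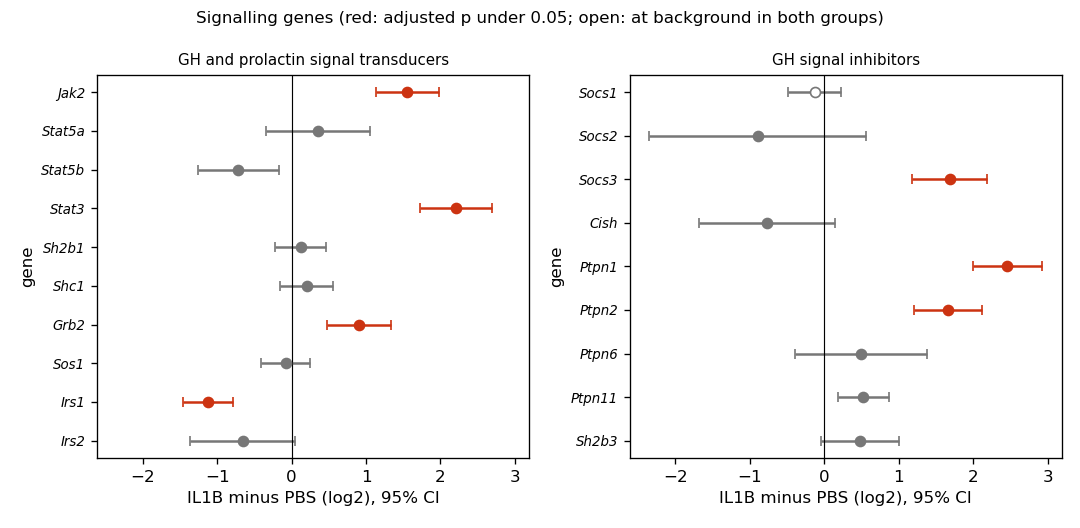
IL1B minus PBS in log2 units (x axis) with 95% confidence intervals for 10 signal transducer genes (left) and 9 inhibitor genes (right); red marks an adjusted p under 0.05 and the open point a gene at background in both groups. Jak2, Stat3, Ptpn1, Ptpn2 and Socs3 lie to the right of 0, whereas Socs2 and Cish have wide intervals that span it.

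Of 9 genes for inhibitors of GH signalling, 3 were higher and 0 were lower (0 also at an unadjusted p under 0.05). This was 33.3% called, against 12.5% of all genes, with a median of 0.49. Ptpn1, a phosphatase that acts on JAK2, was 6.80, 6.35, 6.99 and 6.66 in PBS and 9.67, 9.04, 8.82 and 9.12 in IL1B. The groups did not overlap, and the fitted rise was 2.46 (SE 0.21, limma adjusted p = 0.000133), although Ptpn1 was above background on only 1 of the 4 PBS arrays. Ptpn2, a related phosphatase, rose by 1.66 (SE 0.20, adjusted p = 0.00102), and Socs3, the feedback inhibitor of cytokine receptors, rose from background by at least 0.85 log2 (adjusted p = 0.00153).

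Socs2 and Cish, inhibitor genes that STAT5 itself switches on, did not pass the test. Socs2 was 8.32, 8.87, 8.71 and 9.61 in PBS and 8.34, 5.97, 8.0 and 9.63 in IL1B. IL1B 2 was far below the rest and IL1B 4 matched the highest PBS array, and the difference was -0.89 (SE 0.65, adjusted p = 0.427). Cish was 7.26, 7.87, 6.15 and 6.14 in PBS and at background in IL1B (5.35 to 6.46; adjusted p = 0.269), and Socs1 was at background in both groups (4.38 to 5.01).

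Among 9 IGF ligand and receptor genes outside the list, Itgb3, an integrin subunit gene that was above background on 1 of 4 PBS arrays, had a fitted rise of 2.12 (SE 0.38, adjusted p = 0.00667). Igf1r also passed the test, but all of its values (5.12 to 6.25) were at background in both groups, as were those of Igf2 (4.05 to 4.62). Insr, the insulin receptor gene, was 12.39 to 12.83 in PBS and 12.81 to 13.21 in IL1B (difference 0.35, SE 0.15, adjusted p = 0.176). Of the other 4 binding protein genes, 0 were called (0 at an unadjusted p under 0.05) and 3 were at background in both groups. Of 13 protease and protease inhibitor genes of the binding proteins, 6 were at background in both groups. The metalloprotease gene Adam9 rose by 1.23 (SE 0.20, adjusted p = 0.00407), and the inhibitor gene Timp1, above background on 3 of 4 IL1B arrays, rose from background by at least 0.51 log2 (adjusted p = 0.00155). Mmp2 was called lower (adjusted p = 0.0153), but it was above background on only 1 of 8 arrays, and no size is given.

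The sex-biased genes, which read the pattern of GH release, were described as 26 male-biased and 28 female-biased genes. Of the male-biased genes, 6 were lower and 1 was higher (26.9% called, against 12.5% of all genes), with a median of -0.86. Of these 26 genes, 0 were at background in both groups. Among the 8880 genes past the filter on dim genes, 2930 were called, so the share of all genes is a low mark for this list. Hsd3b5, a steroid dehydrogenase gene of male liver, was 15.85, 13.70, 15.27 and 15.82 in PBS and 12.15, 8.54, 12.42 and 13.05 in IL1B. The groups did not overlap although each spanned over 2 log2 units, and the fall was -3.62 (SE 0.91, limma adjusted p = 0.0302), with the call lost without PBS 1, PBS 3, PBS 4 or IL1B 1. Cyp2u1, a cytochrome P450 gene, differed by -3.80 (SE 0.43, adjusted p = 0.000641). Nudt7, a peroxisomal hydrolase gene, differed by -1.68 (SE 0.38, adjusted p = 0.0187), with the call lost without PBS 1, PBS 4 or IL1B 3. The other 3 lower genes, outside the rule for naming, were Ces3b, Lifr and Uox, and the higher one was the ferritin receptor gene Scara5 (fitted difference 3.99, SE 0.50, adjusted p = 0.00119), which was above background on 1 of 4 PBS arrays.

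Of the 28 female-biased genes, 2 were higher and 0 were lower (7.14% called, against 12.5% of all genes). At an unadjusted p under 0.05, 4 were lower. The median was -0.22, and 10 were at background in both groups. Sult1e1, one of the 2, was among those 10, and the other, Slc22a26, overlapped between groups and was above background on 1 of 4 PBS arrays. Cux2, a factor gene of female liver, was at background on all arrays (4.91 to 5.47).

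The arrays of a group also differed among themselves along these lists, a pattern noticed after the values were seen and given without a test. Over the 24 male-biased genes that were not at an end of the scale in both groups, PBS 2 was the lowest PBS array for 17 and IL1B 2 the lowest IL1B array for 20. Elovl3, a fatty acid elongase gene of male liver, shows it at 17.69 in PBS 2 against 19.15 to 19.92 in the other PBS arrays, and at 15.18 in IL1B 2 against 18.64 to 19.42. PBS 4 and IL1B 4 stood at the other end, as the highest of their group for 18 and 16 of the 24. Over 18 female-biased genes, PBS 2 was the highest PBS array for 10 and PBS 4 the lowest for 12, whereas in IL1B no array took more than 8. In the GH and IGF axis genes the arrays numbered 2 went the same way in Igfals and Igf2r, each being the lowest of its group. They went opposite ways in Igfbp1, Igfbp2, Igfbp3 and Igf1, with PBS 2 the highest and IL1B 2 the lowest of its group. In Igf1, IL1B 2 (16.70) was the lowest only by a small margin (16.71 to 16.80 in the other IL1B arrays).

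**Figure D4:**
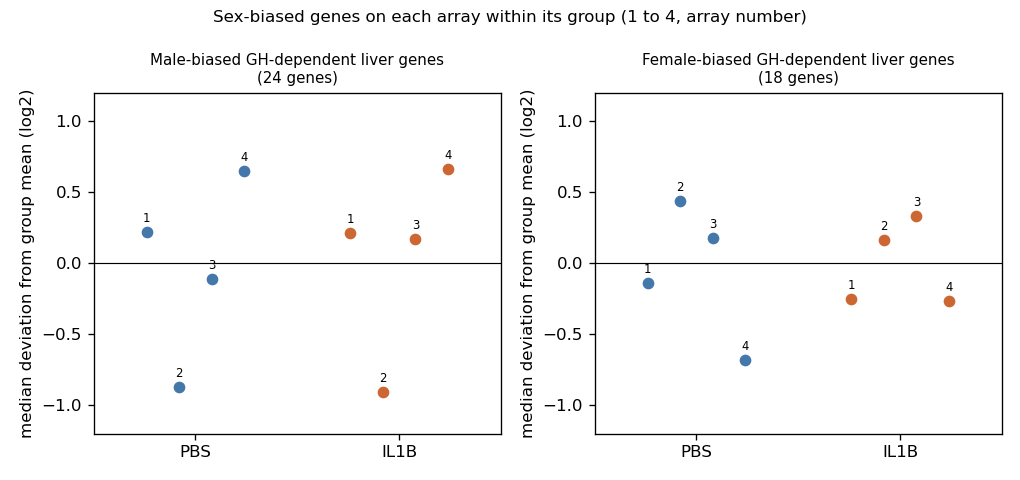
Median deviation of each array from its own group's gene means (y axis, log2) over 24 male-biased (left) and 18 female-biased genes (right), with array numbers. In the male-biased genes PBS 2 (-0.87) and IL1B 2 (-0.91) lie below the other arrays of their groups, and PBS 4 (0.65) and IL1B 4 (0.66) above.

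Of 8 nuclear factor genes of the GH-dependent programme, 2 were higher and 3 were lower (62.5% called, against 12.5% of all genes). Onecut1, at 9.43 to 13.62 in PBS, was 7.47 to 9.05 in IL1B. The groups did not overlap, with PBS 3 close to the highest IL1B array (difference -3.81, SE 0.85, adjusted p = 0.0184), and the call was lost without PBS 1, PBS 4 or IL1B 1. Nr1i3, the gene of the xenobiotic receptor CAR, differed by -3.79 (SE 0.50, adjusted p = 0.00151), Cebpb by 2.10 (SE 0.24, adjusted p = 0.000641) and Hnf4a by 1.25 (SE 0.15, adjusted p = 0.000900). Onecut2, outside the rule for naming, was the remaining lower gene (-1.0, SE 0.23, adjusted p = 0.0198).

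As Igfbp1 answers to fasting, insulin and cell stress, 19 genes of those responses were set beside it. Of these, 4 were higher and 0 were lower (2 at an unadjusted p under 0.05), which was 21.1% called, against 12.5% of all genes. Ddit4, a stress-induced inhibitor of growth signalling, was 4.35, 4.88, 4.83 and 4.13 in PBS and 12.19, 10.17, 9.88 and 7.86 in IL1B. It rose from background in PBS to values above it on all 4 IL1B arrays, by at least 3.23 log2 (limma adjusted p = 0.00152). Ddit3, a stress-induced factor gene, rose by 1.65 (SE 0.22, adjusted p = 0.00160; above background on 3 of 4 PBS arrays) and Foxo1, the insulin-restrained factor gene, by 0.74 (SE 0.13, adjusted p = 0.00692). Atf4 rose by 0.61 (SE 0.17, adjusted p = 0.0460), a call kept only without IL1B 2 among the fits with 1 array left out. Of the gluconeogenic genes, both outside the rule for naming, Pck1 differed by 0.01 (SE 0.18, adjusted p = 0.978), and G6pc, at 17.94 to 19.02 in PBS and 15.40 to 17.62 in IL1B, differed by -1.51 (SE 0.47, adjusted p = 0.0686).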

How the data were processed

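The deposited values are log2 signals that the authors made from Affymetrix mouse gene arrays with Affymetrix Power Tools by robust multi-array averaging, which corrects background and normalizes between arrays, so a shift shared by all genes would be partly removed. Its version was not given in the sources used here. Of 41345 features, 23521 had 1 gene symbol in the platform annotation, 1820 several and 16004 none (190 of these array controls). Features with 1 symbol were averaged to 22180 genes. Of 214 gene list entries, 205 were measured. No pair of arrays shared more than 0.341% of its values, so 8 separate samples were counted.

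Samples were grouped by title (4 PBS, 4 IL1B). Genes were tested with limma 3.58.1 (R 4.3.3, lmFit and eBayes, group only), with Benjamini-Hochberg adjustment over all genes and a threshold of 0.05. Pairs of genes were tested by exact permutation (SciPy 1.17.1). Saturation in a group meant values within 1 log2 unit of the ceiling on all of its arrays. Where 1 group was at background, the values of that group alone were raised to the background level before the difference was taken, which gives the "at least" values. None is given where this turned the sign. Promoter windows came from RefSeq (GRCm38.p6). Figures were drawn with matplotlib 3.10.9. In simulated data with 200 changed genes among 22180, limma recovered 2.39% of changes of 0.5 log2 units, 56.6% of those of 1 and 97.2% of those of 2, with 4.78% false calls. The changed genes were drawn from those above the median PBS level, with the same spread in both groups. Far fewer genes were changed than the 2773 called in the data, so these shares are not the sensitivity of this comparison.

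The members and lists were chosen with earlier results of these data known. Named genes were the members, 14 pathway genes picked by role, up to 4 called genes per list with the largest differences and no overlap, and the strain genes. Alternatives were median centring or quantile normalization of the arrays, the brightest feature of each gene, array weights, a trended robust eBayes, removal of dim genes, the replicate block, thresholds of 0.15 (the study's) and 0.01, and each array left out. No batch or scan label was given. The number of arrays limits the precision, and the p-values set the group differences against the variation between mice.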

Additional observations from a re-analysis of the deposited data

Results flagged for a closer look

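In 13 of 96 groups of 4 arrays tested, among the measured and named genes, 1 array lay far from the other 3 for the size of the range (Dixon's test). Chance alone marks about 1 in 20 such groups. For 3 of them the gene belongs to the GH and IGF axis. Igf1 in IL1B 4 was 16.80 against 16.70 to 16.71, Igfbp4 in PBS 3 was 17.56 against 17.12 to 17.16, and Igfbp4 in IL1B 4 was 16.70 against 16.99 to 17.04.

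PBS 2 stood apart in Saa2 (13.64 against 9.48 to 9.97), Irs2 (9.54 against 8.69 to 8.76) and Socs3 (6.34 against 5.80 to 5.86, all at background). PBS 3 stood apart in Onecut1 (9.43 against 13.15 to 13.62) and Foxo1 (8.91 against 8.52 in each of the others). IL1B 2 stood apart in Timp1 (6.24 against 7.63 to 7.70) and in Saa3, near the ceiling (19.88 against 19.73). Onecut1 in IL1B 1 was 7.47 against 8.80 to 9.05, Cebpb in PBS 1 was 10.22 against 11.06 to 11.22, and Igf2 in IL1B 1 was 4.38 against 4.24 to 4.26, where Igf2 was at background.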

How the results depend on the processing

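Igfbp2 and Igfals stayed lower and past the threshold in all 8 fits with 1 array left out and in all 7 other fits at that threshold. Ghr stayed past it in 3 of those 8 and in 6 of those 7, with an adjusted p of 0.0247 to 0.100 over the arrays left out. Members called lower were 2 to 3 and members called higher 0 with 1 array left out. With the replicate block, Ghr was no longer called (adjusted p = 0.0720), and 2562 genes were called against 2773. The pairs were tested in this setting by flipping the signs of the differences between same-numbered arrays. Igfals minus Igf1 (-1.33) and Igfbp1 minus Igfbp2 (3.41) had an unadjusted p of 0.125 in this test. With 4 differences no smaller p is possible, so the threshold could not be reached and the test cannot show whether the shifts hold under pairing. Deviations of same-numbered arrays correlated at -0.0725, 0.223, 0.052 and 0.122 for numbers 1 to 4. Those of arrays with different numbers correlated at -0.190 to 0.0811. Whether the shared numbers pair the mice cannot be told from the titles. The main fits leave the mice unpaired, and the replicate block is given beside them. Leaving out 1 array, Igfals minus Igf1 was -1.47 to -1.12 and Igfbp1 minus Igfbp2 2.96 to 3.98, with adjusted p of 0.0571 to 0.0857, where so few assignments say nothing about stability. Genes called were 1759 to 2409 (676 to 1077 lower, 1082 to 1399 higher), fewest without PBS 1 (1759) and IL1B 1 (1769), with 677 lower without PBS 1, 676 without IL1B 1 and 781 without PBS 3.

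The settings without 2 arrays were chosen after seeing the data. Without both PBS 2 and IL1B 2, which also held the highest PBS and the lowest IL1B value of Igfbp1, Igfbp1 differed by 2.28 (SE 0.34, adjusted p = 0.00808; 0.200 to 0.817 with 1 array left out), so 1 member was higher and 2 lower, and Ghr was not called (-0.88, adjusted p = 0.0809). Igfals minus Igf1 was then -1.29 and Igfbp1 minus Igfbp2 4.29, each with adjusted p = 0.100. Without 2 arrays the exact tests of the pairs have too few assignments to reach the threshold. Their p-values in both of these settings therefore say nothing about stability. Without IL1B 1 and IL1B 2, where neutrophil markers were highest, 1560 genes were called (1030 higher, 530 lower), Igfals (-1.07) and Igfbp2 (-2.11) stayed lower, Ghr was -0.66 (adjusted p = 0.215), and the pairs were -1.09 and 3.92 (each adjusted p = 0.200). Stat5a was then called (0.93, adjusted p = 0.0453), as Stat5b was after quantile normalization (-0.87, adjusted p = 0.0396). At a threshold of 0.15, 5226 genes were called (2634 higher, 2592 lower), and at 0.01, 1128 (747 higher, 381 lower). Of called genes, 57.5% were higher, against 46.6% after quantile normalization and 63.7% after median centring.

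Differences near 0 changed sign, none of them called. Igf1 was 0.03 with median centring, 0.01 with array weights and -0.07 to 0.06 with 1 array left out. Igf2r and Bcl6 were -0.01 with quantile normalization, and Bcl6 was -0.49 to 1.10 and Igfbp3 -0.45 to 0.03 with 1 array left out. Igf2 was 0.05, 0.00 and 0.01 with quantile normalization, median centring and array weights, and -0.12 to 0.07 with 1 array left out, where H2-Ea was -0.02 to 0.13, Nnt -0.47 to -0.08 and Socs1 -0.19 to 0.01. Without PBS 2 and IL1B 2, Igf1 was 0.07, Igfbp3 0.22, Bcl6 -0.12 and Igf2 0.05. Without IL1B 1 and IL1B 2, Igf1 was 0.02, Bcl6 -0.35, H2-Ea -0.05 and Nnt 0.10. The cause was not tested. The pair of Ghr and Prlr was not run, since Prlr was not matched.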

Other observations

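Of the sex-biased genes, a pair that was uneven within a group is named after the values were seen. Moxd1, a male-biased gene, was 13.90 in IL1B 1 and 4.15 to 5.35 on the other 7 arrays. Acot3, a female-biased acyl-CoA thioesterase gene, was 12.46 in PBS 3, the array with the highest Bcl6, and 6.42 to 8.54 on the other 7.

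Among the sinusoidal endothelial markers, Kdr, a receptor for vascular endothelial growth factor, was 11.99 to 12.32 in PBS and 9.09 to 9.93 in IL1B (difference -2.47, SE 0.21, limma adjusted p = 0.000120). Lyve1, a hyaluronan receptor gene of the same cells, went the other way, from 9.32 to 12.95 in PBS to 13.67 to 14.31 in IL1B (3.18, SE 0.63, adjusted p = 0.0114).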
